A study of Mus musculus with 44 samples.

Results

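The Notch pathway was followed through every assay of the series by 9 genes: the transcriptional targets *Hes1*, *Hes5*, *Hey1* and *Hey2*, the receptors *Notch1*, *Notch2* and *Notch3*, and the ligands *Dll1* and *Jag1*. Each gene was found by the symbol of its RefSeq accession (NM_010419 for *Hes5*), which gave 9 of the 17158 genes listed in any file, of which 17010 carried a symbol. The genes were chosen on values measured in these same libraries, among them the difference of *Hes5* between dark and light visual cortex. Their light-against-dark levels and tails are therefore given as a description, with no test.

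In Notch signalling, a ligand on one cell binds a receptor on its neighbour, and the receptor is cut first outside and then within the membrane. The freed intracellular domain enters the nucleus, joins the DNA-binding protein RBPJ and a Mastermind co-activator, and switches on Hes and Hey genes, which code for basic helix-loop-helix repressors. In the embryonic brain the pathway is known for keeping neural progenitors undifferentiated, and in the adult brain *Hes5* is known from astrocytes and neural stem cells.

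The study asked how translational efficiency, poly(A)-tail length, microRNAs and neuronal activity relate to each other in mouse neurons and brain. Tail sequencing was done on the visual cortex of 8 mice aged 6 to 7 weeks, all kept in darkness for 1 week, of which 4 were then exposed to light for 1 h. RNA of these mice was a portion of material that also served single-cell libraries. RNA-seq, ribosome footprints (RPFs) and tails were measured once each in embryonic (E16) hippocampus, the hippocampus of an adult male, the cortex of an adult male, and cultures of neurons from newborn cortices. The study names its mouse strain as C57BL6J. The cultures were treated with AraC, which removes dividing cells, and each culture pooled tissue from litters. The study describes 6 culture samples as prepared in batches of 3. It does not say which ones shared a batch, and it states no batch for the other 3 cultures. Cultures of 14 days in vitro (DIV14) were unstimulated, given BDNF or glutamate with glycine (glu/gly) for 30 min, or transduced at day 5 with a lentivirus that made GFP, GFP with miR-1 or GFP with miR-155, in which GFP was under the synapsin promoter. DIV10 cultures received KCl for 0, 10 or 30 min. RNA-seq used poly(A)-selected RNA in both hippocampi and RNA depleted of ribosomal RNA in the adult cortex and 6 cultures, and the step is not stated for the other 3 cultures.

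Reads on genes numbered 448022 to 7689624 in the 12 RNA-seq libraries and 2812215 to 23212489 in the 10 RPF libraries used. Tail tags numbered 1233538 to 4812273 in the visual cortex and 86841 to 1057812 in the other libraries. A 7-gene stimulus check (*Fos*, *Egr1*, *Arc* and the like) separated the light mice, with summed levels of 3220 to 5935 CPM (counts per 1000000 on genes) against 199.7 to 1166 in the dark, and 7 of 7 genes past the test. The 7 neuronal markers were detected in every visual cortex and culture library. The embryonic hippocampus held all 7 progenitor markers, at a sum of 4273 RNA-seq CPM against 112.6 in the adult.

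The sequence before the start was available for 7 of the 9 genes (not *Hes1* and *Hey1*), and the stretches around the RBPJ motif are shown because RBPJ is the protein through which Notch acts on its targets. It was found in 2 of the 7, *Hes5* and *Hey2*, and nothing about the light response is read from it. The motif searched was GTGGGAA on either strand (TTCCCAC on the other), in the 250 bases before the RefSeq start in GRCm38.p6. *Hes5* held it 2 times, beginning 226 and 83 bases before the start, and *Hey2* held it 1 time, beginning 207 bases before. Of 32851 such windows in the genome, 5.41% held it and 0.161% held it 2 times or more. These shares are over all windows, whatever their content of G and C. *Notch1*, *Notch2*, *Notch3*, *Dll1* and *Jag1* had no match. The capitals mark the motif, and each stretch is written 5′ to 3′ on the strand of the gene.
Hes5 distal, chr4:154960686-154960715, plus strand: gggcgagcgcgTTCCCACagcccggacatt
Hes5 proximal, chr4:154960829-154960858, plus strand: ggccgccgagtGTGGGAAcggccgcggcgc
Hey2, chr10:30842972-30843001, minus strand: gcgcggtggcaTTCCCACgcctctgccaac
Both *Hes5* stretches lay upstream of the start of the curated transcript and inside the first exon of a longer predicted one, and the *Hey2* stretch lay in no annotated exon of *Hey2*. The windows of both genes were rich in G and C, at 71.6% against a genome-wide median of 52.4%. A match is a description of letters, and binding was not measured.

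*Hes5* (chr4:154960626-154962372) codes for a repressor that is a standard readout of Notch activity in progenitors and astroglia. In the visual cortex its level in the 4 dark mice was 37.6, 32.2, 43.7 and 36.2 CPM. In the 4 light mice it was 10.5, 8.94, 13.1 and 26.2 CPM. The groups did not overlap, and the fourth light mouse stood nearest to the dark mice. The means were 37.4 ± 4.77 in the dark and 14.7 ± 7.83 in light (SD, n = 4 each), a ratio of 0.392. The fitted log2 change was -1.27 ± 0.26 (SE, edgeR), the seventh lowest of 9554 genes tested, and it ran from -1.71 to -1.08 when each mouse was left out in turn. These values rest on 45 to 155 tags in the dark libraries and 13 to 44 in the light ones. In bulk tissue, fewer cells that express a gene and less of its mRNA per cell cannot be told apart.

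*Hey2* (chr10:30832359-30842783), which codes for a related repressor best known from heart and vessels, differed in the opposite direction. Its dark levels were 4.10, 5.82, 7.81 and 4.83 CPM and its light levels 10.5, 14.7, 12.5 and 10.1. All light mice were above all dark mice, on 6 to 28 tags in the dark and 13 to 23 in light. The log2 change was 1.10 ± 0.33 (1.00 to 1.25 with each mouse left out), and the gene passed the filter on low tags only through the light group. Of the 9 genes, 8 had a tag in the visual cortex, 6 passed the filter and 2 did not overlap between the groups. Among all genes tested, 3.13% had every light mouse below every dark mouse, 2.63% had every light mouse above, and 1.34% passed the test of level. Because the genes were chosen on this contrast, nothing is read from these counts.

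**Figure D1:**
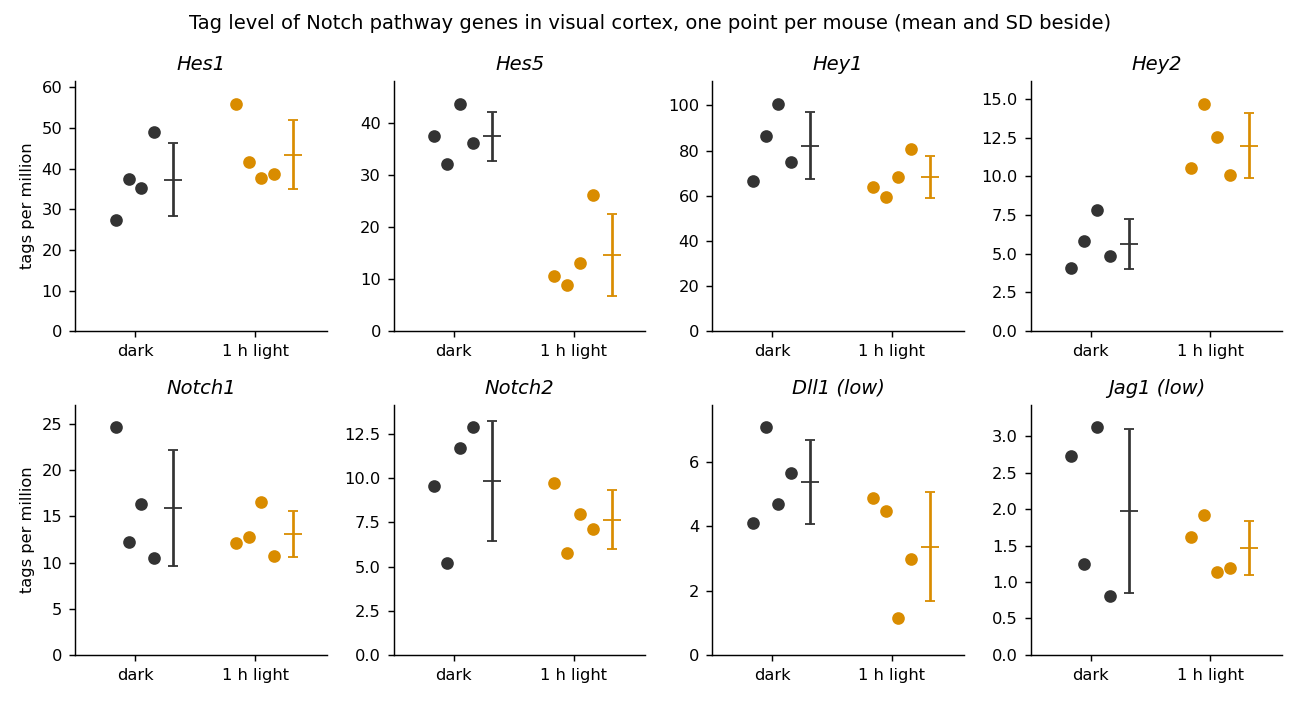
Tag level in CPM (vertical axis, from 0) of 8 Notch pathway genes in the visual cortex of each of 4 dark mice (black) and 4 mice given 1 h of light (orange), with the mean and SD beside the points. *Hes5* lies at 32.2 to 43.7 in the dark and 8.94 to 26.2 in light, *Hey2* at 4.10 to 7.81 and 10.1 to 14.7, and the groups overlap for the other 6 genes.

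The other targets overlapped between dark and light. *Hes1* (chr16:30065357-30067796), a target that many signals besides Notch also induce, was at 27.4, 37.4, 35.1 and 49.1 CPM in the dark and 55.9, 41.5, 37.6 and 38.6 in light. Its log2 change was 0.24 ± 0.18, and only the first light mouse exceeded the whole dark group. *Hey1* (chr3:8663359-8667038), the sister gene of *Hey2*, was at 66.3, 86.7, 100.7 and 74.9 in the dark and 64.0, 59.4, 68.4 and 80.8 in light. Its log2 change was -0.24 ± 0.14, with 2 light mice below the lowest dark mouse.

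The receptors were sparse in tags. *Notch1* (chr2:26457902-26503822) was at 24.6, 12.3, 16.4 and 10.5 CPM in the dark and 12.2, 12.8, 16.5 and 10.7 in light. The first dark mouse stood above the rest, and the log2 change of -0.22 ± 0.30 ranged from -0.37 to 0.05 with each mouse left out. *Notch2* (chr3:98013538-98150367) was at 9.58, 5.20, 11.7 and 12.9 in the dark and 9.73, 5.75, 7.98 and 7.13 in light, with a log2 change of -0.23 ± 0.36. *Notch3* (chr17:32120820-32166896), a receptor of mural cells and progenitors, was not listed in any visual cortex library. The ligands *Dll1* (chr17:15367354-15376932; 2 to 34 tags a library) and *Jag1* (chr2:137081451-137116520; 1 to 6 tags) failed the filter, and their means were 5.37 ± 1.29 and 1.98 ± 1.13 CPM in the dark and 3.36 ± 1.69 and 1.47 ± 0.37 in light.

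The rest of the pathway was tested in the same fit. Of 53 other listed genes (further ligands, a receptor, cleavage enzymes, the nuclear complex, co-repressors, sugar transferases, endocytosis and turnover, further targets and proneural genes), 37 passed the filter. None of the 37 passed the test of level with edgeR or with DESeq2, 17 were lower and 20 higher in light, and their log2 changes ran from -0.42 to 0.67. At an unadjusted p under 0.05 there were 2 of 37, named here after their values were seen, against 9.45% of all genes. *Maml1*, a Mastermind co-activator, had a log2 change of 0.67 ± 0.25 (edgeR adjusted p = 0.312), and *Numbl*, which codes for a Notch-inhibiting adaptor, 0.28 (edgeR adjusted p = 0.369).

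Other cell types were read beside *Hes5*. The 10 astrocyte markers summed to 5266, 4201, 4318 and 4380 CPM in the dark and 3867, 4133, 4185 and 3893 in light, so that all light sums lay below all dark sums. Of the 10, 8 were lower in light, 0 passed the test and 1 did not overlap between the groups. All 10 were detected in all 8 mice. Lower in light were also 5 of 6 oligodendrocyte, 5 of 6 endothelial, 5 of 6 mural, 5 of 5 fibroblast and 5 of 7 microglial markers. So were 2 of 3 oligodendrocyte precursor, 4 of 7 progenitor and 3 of 7 neuronal markers. These counts are of mean CPM and include markers that failed the filter. By fitted change among those that passed it, 3 of 4 endothelial, 3 of 3 mural and 3 of 4 fibroblast markers were lower. So were 1 of 3 progenitor and 2 of 6 neuronal markers. None of the tested markers of these cell types passed the test, and 4681 of all 9554 genes tested had a higher fitted level in light. The part of astrocyte or other cell content in the *Hes5* difference was not tested. The fourth light mouse, with the highest *Hes5* of its group, also had the lowest stimulus sum, 3220 against 4536 to 5935 in the others. This mouse was singled out by its *Hes5* level, and a link between the values was not tested. Progenitor markers summed to 139.9 to 240.8 CPM in the dark and 167 to 255 in light.

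Tail lengths of the same mRNAs were compared as means over the tags of each gene. *Hes5* tails averaged 84.6, 97.1, 57.4 and 66.5 nt in the dark mice and 110.7, 90.1, 88.5 and 99.2 nt in the light mice. The light range lay in the upper part of the dark one and beyond it, but the light values rest on 13 to 44 tags. The only one of the 9 genes with at least 50 tags in all 8 mice was *Hey1*. Its tails were 94.7, 98.8, 80.4 and 101.6 nt in the dark and 69.1, 92.8, 93.4 and 73.1 nt in light, ranges that overlap. Set against the median over genes of each library, *Hey1* was longer by 2.35 to 21.7 nt in the dark mice and shorter in all light mice, from -14.2 to -1.27 nt. On that scale *Hes5* ran from -20.1 to 6.53 nt in the dark and -9.27 to 27.4 nt in light, ranges that overlap. How many of all genes separate on that scale was not counted, so nothing is read from the *Hey1* values. The change of *Hey1* was -11.8 nt (-16.3 to -7.45 nt with each mouse left out), while the median over all genes was 3.75 nt. *Hes1* tails were 56.5, 90.1, 59.8 and 63.3 nt in the dark and 69.5, 74.0, 73.2 and 67.3 nt in light, shorter than the library median in each mouse. Over all 4321 genes with enough tags, 10 passed the test of tail length (0.231%), all longer in light, and 0 of 15 other pathway genes did (limma). The count of 10 ran from 1 to 21 with each mouse left out, and without the first dark mouse 13 genes were called longer and 6 shorter. None of the 15 had an unadjusted p under 0.05.

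Outside the visual cortex, *Hes1* and *Hey1* mostly stood on opposite sides of the median, in libraries made by another tail method (TAIL-seq). Over the 7 of those libraries that held 20 or more *Hes1* tags, its mean tail ran from 84.4 to 105.8 nt and was shorter than the library median in 6, the adult cortex being the exception at 6.33 nt longer. *Hey1* had 20 or more tags in all 10 and ran from 99.3 to 141 nt, longer than the median in 9 of 10, with the miR-1 culture 0.92 nt shorter. The hippocampal tails appear to be medians rather than means and rest on few tags, 2 and 18 for *Hes5*, so they are not compared with the others.

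**Figure D2:**
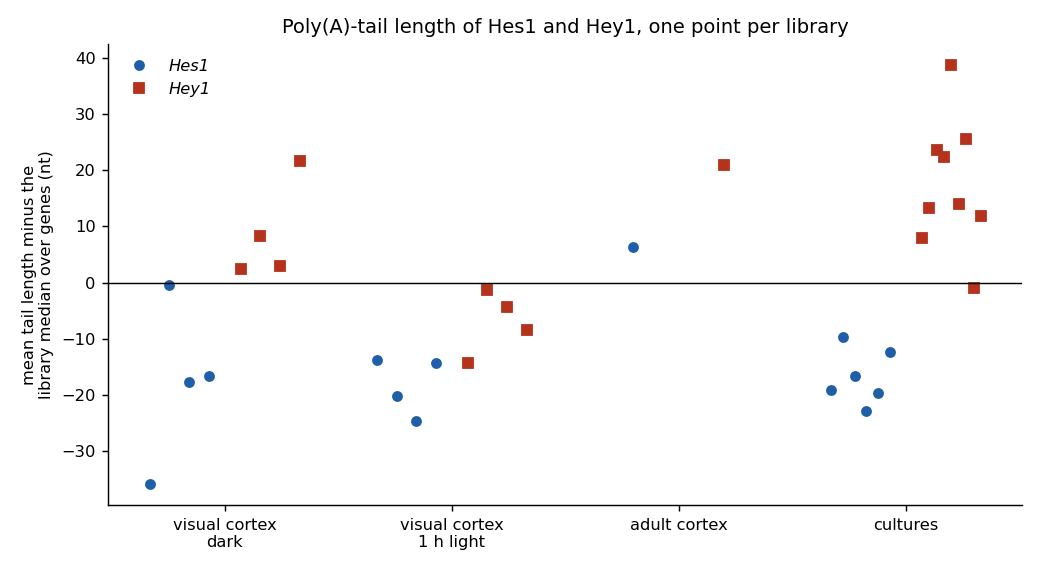
Mean poly(A)-tail length of *Hes1* (blue circles) and *Hey1* (red squares) minus the median over genes of the same library, in nt (vertical axis), with 1 point for each library that held at least 20 tags of the gene. *Hes1* lies from -35.9 to -0.49 nt in the dark mice and -24.6 to -13.8 nt in the light mice, and *Hey1* from 2.35 to 21.7 nt in the dark and -14.2 to -1.27 nt in light.

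Adult and embryonic hippocampus had 1 library of each kind, so their differences have no replicate check, and the intervals given are exact 95% limits of counting error only. *Hes5* had 253 RNA-seq reads in the embryo and 6 in the adult, or 32.9 and 0.824 CPM. This is a ratio of 0.0251 and a log2 fold of -5.32 (-6.78 to -4.18). Its RPFs were 1605 and 357, or 69.1 and 16.5 CPM, a log2 fold of -2.07 (-2.24 to -1.90). The gene was lower in the adult in both assays, by far more in RNA-seq, and the intervals of the 2 folds do not overlap. The hippocampal RPF libraries listed 12653 genes (adult, 21658829 reads) and 11880 (embryo, 23212489 reads). The RPF library of the GFP culture listed 13723 on 2949577 reads. Counting intervals do not cover such differences between libraries, so disagreements between RNA-seq and RPFs here are given as description.

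*Hey2* differed in sign between the assays. Its reads were 73 in the embryo and 16 in the adult in RNA-seq, a log2 fold of -2.11 (-2.99 to -1.32). Its RPFs were 21 and 131, a log2 fold of 2.74 (2.07 to 3.48). *Hes1* had 192 and 119 RNA-seq reads and 733 and 462 RPFs, log2 folds of -0.61 (-0.95 to -0.27) and -0.57 (-0.74 to -0.40), lower in the adult but by less than 2-fold. *Hey1* had 214 and 221 RNA-seq reads, a log2 fold of 0.13 (-0.15 to 0.40) whose sign turns with the authors' RPM scale (-0.20), and 1163 and 724 RPFs, a log2 fold of -0.58.

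Receptors and ligands were lower in the adult in both assays (values are given as embryo, then adult). *Notch1* went from 3543 to 290 RNA-seq reads and from 23522 RPFs to 986, log2 folds of -3.53 and -4.48. For *Notch2* the reads were 2127 and 427 and the RPFs 18081 and 1126, log2 folds of -2.24 and -3.90. *Notch3* had 749 and 78 reads and 2052 and 50 RPFs, log2 folds of -3.18 and -5.26. *Dll1*, the ligand of differentiating progeny, had 511 and 38 reads but 3896 and 28 RPFs, log2 folds of -3.67 and -7.02, the lowest RPF fold of the 9. *Jag1*, a ligand with roles in vessels and progenitor niches, had 142 and 62 reads and 514 and 113 RPFs, log2 folds of -1.12 and -2.08. For all 3 receptors and both ligands the RPF fold was larger than the RNA-seq fold.

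Counted together, 7 of 9 genes were past 2-fold lower in RNA-seq, where 26.6% of all genes with 20 or more reads were. With TMM scaling, the count was 6, since *Jag1* came to -0.92. In RPFs 6 of 9 were past 2-fold lower, against 33.5% of all genes, and 1 was past 2-fold higher, against 30.3%. The median log2 fold of the 9 was -2.24 in RNA-seq and -2.08 in RPFs, and that of all genes -0.23 and -0.31. Progenitor markers moved the same way, with RPF sums of 155.1 CPM in the adult and 3791 in the embryo, and astrocyte markers the other way, with RNA-seq sums of 3533 and 954 and RPF sums of 6050 and 1469. Age and the content of these cell types cannot be told apart in these libraries.

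**Figure D3:**
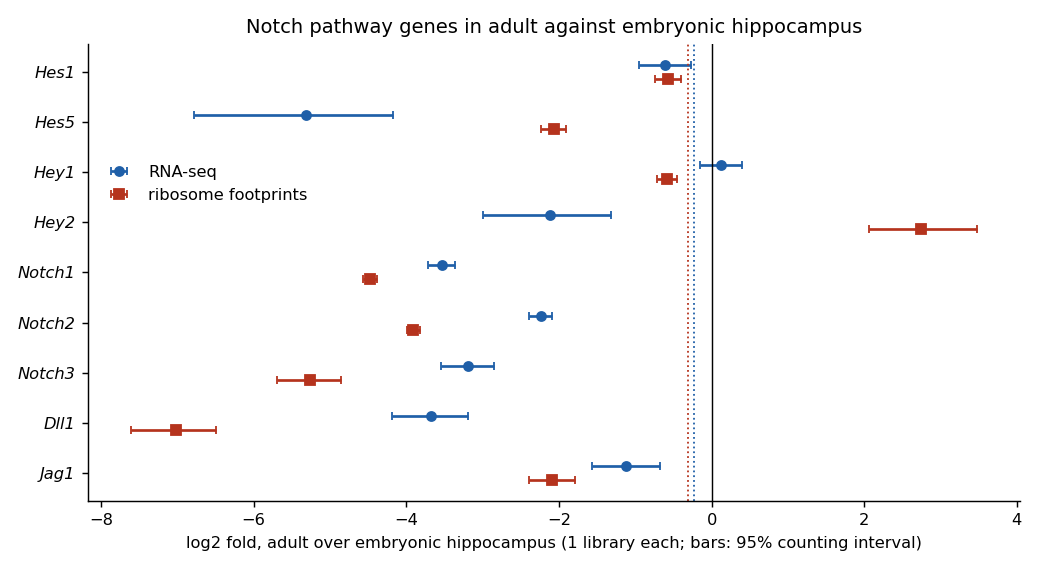
Log2 fold of adult over embryonic hippocampus (horizontal axis) for the 9 genes in RNA-seq (blue circles) and ribosome footprints (red squares), with 95% counting intervals from 1 library each and dotted lines at the medians of all genes, -0.23 and -0.31. *Dll1* reaches -7.02 in footprints, *Hes5* -5.32 in RNA-seq, and *Hey2* lies at -2.11 in RNA-seq and 2.74 in footprints.

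Of 48 other pathway genes with enough reads in both assays, 14 were past 2-fold lower in the adult in both and 3 past 2-fold higher in both, against 19.5% and 17.5% of all 12306 genes tested in both. Among the lower ones, *Mfng*, a sugar transferase that modifies Notch receptors, had 225 RNA-seq reads in the embryo and 2 in the adult. *Dll4*, the ligand of vessels, had 105 reads and 241 RPFs in the embryo and was not listed in the adult. *Neurog2*, a proneural gene that Hes factors repress, had 724 and 22 reads and 3922 and 14 RPFs. *Heyl*, a further target, had 29 reads and 1 read. The 3 higher genes were *Neurl1a* (30 and 1161 reads), which codes for a ubiquitin ligase, *Dlk2* (25 and 99 reads), a non-canonical ligand, and *Fbxw7* (598 and 1571 reads), which marks the Notch intracellular domain for degradation.

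Per kilobase of counted coding sequence, the order of the 9 genes differed between tissues. In the embryo *Hes5* and *Notch1* led in RNA-seq, at 72.5 and 61.1 CPM per kb, and *Hes5*, *Notch1* and *Notch2* in RPFs, at 152, 134 and 106. In the adult hippocampus *Hey1* led in both, at 35.7 and 39.3, and *Hes5* was at 1.81 in RNA-seq but 36.3 in RPFs. In the adult cortex *Hey1* led again, at 46.1 and 59.3, and *Hes5* followed at 18.0 and 17.9. *Notch3* was the lowest of the 9 in adult RPFs, at 0.334 in the hippocampus and 0.637 in the cortex.

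Adult cortex was also compared with adult hippocampus, again by single libraries. *Hes5* had 14 RNA-seq reads in cortex and 6 in hippocampus, a log2 fold of 3.31 (1.84 to 4.98), but 61 and 357 RPFs, a log2 fold of -1.02 (-1.44 to -0.62). *Hes1* was lower in cortex, at -1.10 in RNA-seq and -0.90 in RPFs. *Dll1* had 42 and 28 RPFs, a log2 fold of 2.12. Past 2-fold in either direction were 2 of 8 genes in RNA-seq and 2 of 9 in RPFs, where 21.6% and 32.2% of all genes were. The tissues also differ in how RNA was selected, and on the RPM scale all RNA-seq folds of this pair are lower by 0.61.

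**Figure D4:**
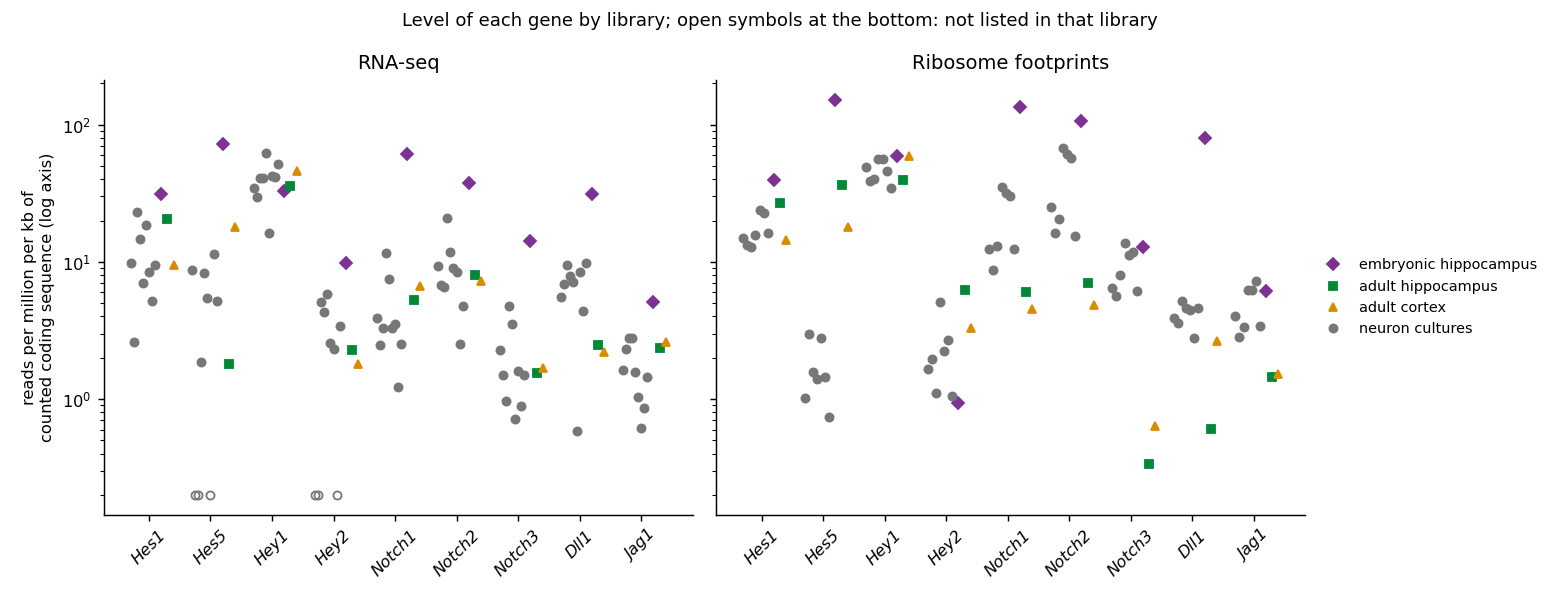
CPM per kb of counted coding sequence (vertical log axis) of the 9 genes in RNA-seq (left) and ribosome footprints (right), with 1 point per library: embryonic hippocampus, adult hippocampus, adult cortex and cultures. *Hes5* lies at 72.5 and 152 in embryonic hippocampus and at 2.98 or less in footprints of cultures, where open circles on the RNA-seq side mark libraries that do not list it.

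*Hes5* was close to undetected in the neuron cultures. RNA-seq held 0 to 5 of its reads in 9 cultures, with a median of 2, and 3 of them did not list it. RPFs of *Hes5* numbered 1 to 7 in 7 cultures, and tail tags 0 to 5 in 9. Of the 10 astrocyte markers 9 were detected, all but *Gjb6*, and they summed to 1211 to 2290 RNA-seq CPM in the same cultures, so other astroglial mRNAs were present. Against the unstimulated DIV14 culture the adult cortex had 61 RPFs of *Hes5* to 2, a ratio of 17.6 (4.68 to 149), and 21 tail tags to 5, a ratio of 7.30 (2.68 to 24.8). RNA-seq reads were 14 to 2, a ratio of 2.08 (0.479 to 18.9) whose interval includes 1.

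The receptors stood the other way in the RPFs of that pair. *Notch1* had 257 RPFs in cortex and 406 in the culture, a log2 fold of -1.45, *Notch2* 267 and 804 (-2.38), *Notch3* 33 and 193 (-3.34) and *Jag1* 41 and 63 (-1.41). Thus 4 of 9 genes were past 2-fold lower in cortex RPFs and 1, *Hes5*, higher, against 11.9% and 12.3% of all genes. In RNA-seq 0 of 4 genes with enough reads were past 2-fold, against 36.9% of all genes. *Notch1* had 86 reads in cortex to 15 in the culture, a log2 fold of 0.77 (-0.03 to 1.67). Progenitor markers summed to 118.2 CPM in cortex RPFs and 2018 in the culture, and their part in the receptor values was not tested. *Hey1* was nearly level in RPFs, with 378 and 182 and a log2 fold of 0.26. In RNA-seq it was also higher in cortex, with 67 and 15 reads, or 9.48 and 6.36 on the authors' RPM scale.

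Between DIV10 and DIV14 the receptors were lower in the older culture. These cultures were controls of separate experiments, KCl at DIV10 and BDNF with glu/gly at DIV14. Days in vitro therefore cannot be told apart from preparation. *Notch1* had 104 RNA-seq reads at DIV10 and 15 at DIV14, a log2 fold of -1.57 (-2.45 to -0.78), and 2513 and 406 RPFs, a log2 fold of -1.50 (-1.66 to -1.35). *Notch2* had log2 folds of -1.17 and -1.42 and *Notch3* of -1.06 and -1.10, the RNA-seq interval of *Notch3* including 0. *Hey2* had 47 and 7 RPFs (-1.62), whereas *Hes1* and *Hey1* had RPF folds of -0.07 and -0.20. In all, 3 of 5 genes in RNA-seq and 4 of 8 in RPFs were past 2-fold lower, against 8.47% and 9.8% of all genes. On the authors' RPM scale *Notch3* was less than 2-fold lower, at 6.40 and 3.39 in RNA-seq and 55.4 and 30.0 in RPFs. Tail tags put 1 of 4 genes past 2-fold lower, against 6.82% of all genes. Progenitor markers summed to 3164 RNA-seq CPM at DIV10 and 1686 at DIV14, and their part in the receptor values was not tested.

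Depolarization with KCl for 30 min gave RNA-seq and RPF values that differed. *Notch1* had 20 RNA-seq reads against 104 in the unstimulated DIV10 culture, a log2 fold of -1.81 (-2.58 to -1.11), but 698 and 2513 RPFs, a log2 fold of -0.21. *Notch2* had 53 and 184 reads (-1.23), *Hey1* 11 and 41 (-1.33), *Notch3* 4 and 39 (-2.72) and *Dll1* 1 and 20 (-3.75, with an interval of -9.13 to -1.11). Thus 5 of 6 genes were past 2-fold lower in RNA-seq, against 7.94% of all genes, and 0 of 8 in RPFs, against 7.81% past it in either direction. Tail tags, a further count of mRNA from the same treatments, numbered 26 and 17 for *Notch2*, a log2 fold of 0.25 in the other direction from its RNA-seq. They were 24 and 21 for *Notch1* (-0.17), and 0 of the 4 genes with enough tags were past 2-fold, against 5.05% of all genes. Progenitor markers were lower in both assays, at 1819 CPM after KCl and 3164 without in RNA-seq and 3657 and 4980 in RPFs, and their part was not tested.

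*Hes1* was higher in RPFs of both KCl cultures, by less than 2-fold. It had 119 RPFs without KCl, 106 after 10 min and 55 after 30 min, or 12.6, 19.2 and 18.0 CPM, log2 folds of 0.61 (0.22 to 1.00) and 0.52 (0.03 to 1.00). Its tail tags were 23, 41 and 37, log2 folds of 0.91 (0.14 to 1.71) and 0.32 (-0.46 to 1.14). RNA-seq held few reads of it, 14 without KCl, 3 after 10 min and 12 after 30 min, log2 folds of -1.06 (-3.50 to 0.78) and 0.35 (-0.90 to 1.57). RPFs and tags thus gave higher values at both times, while the RNA-seq value at 10 min was lower with an interval that includes 0. After 10 min 1 of 8 genes, *Hey2* with 12 RPFs to 47, was past 2-fold lower, against 6.28% of all genes.

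The DIV14 stimuli and the lentivirus left the 7 genes with enough RPFs within 2-fold of the unstimulated culture. This was 0 of 7 with BDNF, 0 of 7 with glu/gly and 0 of 7 with GFP, against 3.93%, 3.74% and 5.88% of all genes past 2-fold in either direction. Tail tags put 0 of 4 genes past 2-fold with BDNF, 1 of 3 with glu/gly and 1 of 3 with GFP. Over all genes the tag shares were 3.23%, 3.19% and 8.2%. Lower in tags were *Notch1* with glu/gly, at 6 tags to 22, and *Hes1* with GFP, at 7 to 50. The GFP tail library held 389654 tags against 1042761 unstimulated. Whether the GFP and unstimulated cultures shared a batch is not stated. *Notch2* had RPF folds of -0.63 (-0.80 to -0.46) with BDNF and -0.29 (-0.47 to -0.12) with glu/gly. Progenitor markers were also lower in RPFs with BDNF, at 1268 CPM against 2018, and their part was not tested. Against the GFP culture, *Notch1* and *Notch2* had 9 and 18 RNA-seq reads with miR-1, to 12 and 28 in the shallower GFP library, log2 folds of -1.53 (-2.95 to -0.16) and -1.75 (-2.69 to -0.84). That was 2 of 3 genes past 2-fold lower, against 3.6% of all genes. Markers of other cells were lower with miR-1 too, from 993 to 534 CPM for progenitors, 75.9 to 16.5 for mural cells, 40.2 to 6.19 for endothelium and 73.7 to 21.7 for oligodendrocyte precursors, and their part was not tested. With miR-155 0 of 5 genes were past 2-fold, against 7.09%, and *Notch2* was at -0.83 (-1.48 to -0.15).

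Translational efficiency (TE) was taken as the log2 ratio of RPF to RNA-seq RPM and kept where RNA-seq gave 10 RPM or more. RPM is the authors' unit, reads per 1000000 of a total that exceeded the reads on listed genes. Of 90 possible values of the 9 genes in 10 samples, 21 in 9 samples passed, and 18 of these lay above the median of their sample. Most of the 21 were *Notch2* and *Notch1* repeated over samples, so they are not separate genes. *Notch2* gave the most values. In 6 cultures its TE was 3.08 unstimulated at DIV14, 2.81 with BDNF, 2.99 with glu/gly, 2.65 with GFP, 3.26 at DIV10 and 3.61 after 10 min of KCl. These lay 1.39 to 2.87 above the sample medians, with 90.0% to 99.4% of genes lower. *Notch1* passed in 2 cultures, at 3.18 and 3.32.

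In adult tissue the receptors were near the median. *Notch1* had a TE of 1.25 in hippocampus and 1.04 in cortex, and *Notch2* 0.89 and 1.00, where the medians over genes were 0.88 and 1.31. The embryonic hippocampus held 7 values. *Notch2* was at 2.28 with 99.1% of genes lower, *Dll1* at 2.12 with 98.1% lower and *Notch1* at 1.92 with 96.0% lower. *Hes5* was at 1.86 (1.66 to 2.05) with 95.1% of genes lower, *Hey1* at 1.63 and *Hes1* at 1.12, while *Notch3*, at 0.64, lay at the median of 0.67. In adult hippocampus *Hes5* failed the filter on 6 RNA-seq reads, and its 357 RPFs over those reads would give 5.38 (4.25 to 6.84).

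**Figure D5:**
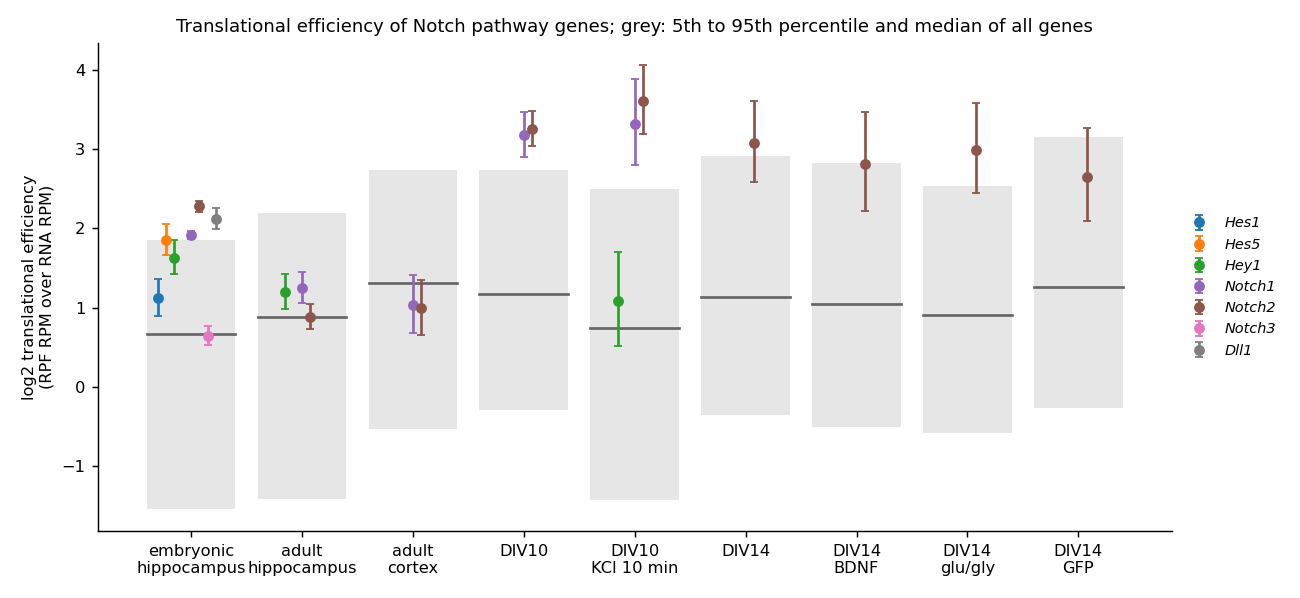
Log2 translational efficiency (vertical axis) of the genes that passed 10 RPM in RNA-seq, by sample, with 95% counting intervals, and in grey the median and the range from the 5th to the 95th percentile of all genes. *Notch2* lies at 2.65 to 3.61 in the cultures and at 0.89 and 1.00 in the adult tissues.

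Genes whose pattern was most like that of *Hes5* were found as a description. Over the 12 RNA-seq libraries and 8041 genes, the highest Pearson r of log2 RPM was that of *Stag1* (0.95), and the 8 most alike also held *Tiam2*, *Lrch2*, *Taf2*, *Elf2*, *Rasgef1b* and *Rgs12* (0.929). *Hes5* was at 15.2 RPM in the embryonic hippocampus and at 1.98 RPM or less elsewhere, and without that library 1 of the 8 genes was still among the 8 most alike. *Notch3* and *Notch1* had r of 0.80 with *Hes5*, *Notch2* 0.68, *Dll1* 0.66 and *Hey1* 0.46. These values rest on the same library: without it they were 0.10, 0.10, -0.18, -0.39 and 0.28 in that order. Over the 8 visual cortex libraries, which share tissue and method, *Atad1* (0.976), *Zfp84*, *Zfp764*, *Pik3ip1* and *Ints10* (0.961) were most alike. Among the 9 genes *Hey1* had r of 0.75 and *Hey2* -0.83. These values hold the dark and light difference on which the genes were chosen. Taken as deviations from the group means, an alternative chosen after seeing the data, they were 0.64 and -0.26, with *Hes1* lowest at -0.31. Of the 5 genes, 0 were among the 5 most alike on those deviations and 0 by Spearman's rho.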

How the data were processed

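The members and gene lists were chosen with earlier results of these data known. The deposited values were, per the file headers, read counts and RPM for RNA-seq and RPFs, and tag counts with a tail length in nt for TAIL-seq and PAL-seq. The authors counted reads in coding sequence, after dropping the first 50 nt, of 1 representative transcript of each gene in mm10 (GRCm38). The submitters' processing notes name STAR 2.4.2 and bedtools. The authors' RPM divided by a total larger than the reads on listed genes. The authors' deposited log2 TE equalled the log2 ratio of RPF to RNA-seq RPM computed here. A table repeating tag counts and tails was not used. A gene missing from a file was taken as not listed and set to 0.

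Levels (CPM) here are counts per 1000000 on genes. Light was tested on tag counts with edgeR 4.0.16 (quasi-likelihood, TMM, filterByExpr) and on tails with limma 3.58.1 (at least 50 tags in each library), both adjusted by Benjamini-Hochberg at 0.05, in R 4.3.3, and checked on simulated data. DESeq2 1.42.0 was an alternative. Pairs of single libraries were compared by ratio, with exact 95% conditional binomial intervals, for genes with 20 reads over both. These intervals cover counting error only. Named genes were the 9, pathway genes past the light test or past 2-fold in both hippocampal assays (4 largest in each direction), *Maml1* and *Numbl*, which fall outside that rule and were chosen after their values were seen, and the 8 or 5 genes most correlated with *Hes5* (log2 of value plus 1, mean of at least 5), of which 1 is not reported here. Sequences came from RefSeq for GRCm38.p6. For 2 RPF libraries the labels contradict each other on the microRNA, so they entered no comparison.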

Additional observations from a re-analysis of the deposited data

How the results depend on the processing

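Light called 128 genes by level (113 with the replicate block, 132 with DESeq2, 192 without the filter, 100 to 150 with a mouse left out) and no other pathway gene in any of these. Genes called by tail length numbered 10, but 1 on a log2 scale, 1 with the replicate block and 1 to 21 with a mouse left out: 19 without dark mouse 1, 21 without light mouse 4, and 1 or 2 without dark mouse 2, 3 or 4 or light mouse 2 or 3. The cause was not tested. The replicate numbers did not pair the mice: same-numbered deviations correlated at 0.03, -0.20, -0.10 and -0.09 in level. All 72 alternatives for the members' light levels shifted by less than 1 pooled SD between mice. This bound is loose, since leaving out 1 of 4 mice can hardly exceed it, so stability is not read from it. *Hes5* ran from -1.71 to -1.08 with a mouse left out. Of 294 alternatives for single-library folds, 37 moved outside the counting interval, among them *Hes5* RPFs in hippocampus (-1.80 with TMM). A reversal was counted only for folds past 2-fold, and there was 1 (*Notch2* at 30 min of KCl, 0.25 in tail tags). Over folds of any size, the sign changed in 6 of 126 with TMM and 14 of 126 with the authors' RPM. With tail tags the sign changed in 11 of 42, and 17 of the 42 moved. Of the 8 genes most like *Hes5*, 0 were shared by Spearman's rho, 1 without embryonic hippocampus and 1 with a pseudocount of 0.1. Of the 5 most alike in the visual cortex, 0 were shared by Spearman's rho and 0 on deviations from the group means, alternatives chosen after seeing the data. *Hes5* rests on 13 to 44 tags in light and on 6 RNA-seq reads in adult hippocampus, which limits its fold there.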

Other observations

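The 2 RPF libraries with contradictory microRNA labels held few reads of these genes in the shallower one. *Notch1* had 25 RPFs in one and 368 in the other, *Notch2* 24 and 509, and *Hey1* 35 and 179. *Hes5* was not listed in the first and had 6 RPFs in the second.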
